A study of Mus musculus with 5 samples.

Results

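The 10 genes described here carry or report bone morphogenetic protein (BMP) signaling and were measured in mouse retina after form deprivation: the inhibitors of DNA binding Id1, Id2, Id3 and Id4, the receptor-regulated Smads Smad1, Smad5 and Smad9, the inhibitory Smads Smad6 and Smad7, and the decoy receptor Bambi. They were chosen by symbol, each had 1 row among the 33636 genes of the count table, and all 10 passed the count filter that 17432 genes passed. The retinas came from male wild-type C57BL6/J mice, an inbred laboratory strain, collected at P42. In the FDM group (form-deprivation myopia) the right eye had worn a head-mounted diffuser goggle for 2 weeks from P28, and in the Control group the left eye of such an animal was uncovered, so that both groups come from goggled animals and no untreated animal is included. The libraries analysed were 2 from FDM eyes and 3 from Control eyes. Refractive errors given for the samples at P42 were 0.976 and 0.275 in FDM and from 2.45 to 3.15 in Control eyes. The count table numbers the FDM libraries 1 and 3 while the sample labels number them 1 and 2, and the column numbers are used here. They pair FDM 1 with Control 1 and FDM 3 with Control 3 as eyes of the same mouse and leave Control 2 without a partner, whereas the label numbers pair the second FDM library with Control 2.

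In BMP signaling a ligand brings together type I and type II serine/threonine kinase receptors, which phosphorylate Smad1, Smad5 or Smad9. These join Smad4, enter the nucleus and switch on target genes, of which the Id genes are among the most direct, while Smad6, Smad7 and Bambi are induced as feedback inhibitors. Id proteins hold a helix-loop-helix domain without a DNA-binding region and keep E proteins and their tissue-specific bHLH partners off DNA. In the eye the pathway is known for dorso-ventral patterning of the retina and for its role in the tissues that shape eye growth.

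A GGCGCC box is a sequence that BMP Smads are known to bind. The windows just before the RefSeq start are shown for those of the 7 searched members in which the box lies outside annotated UTRs. For Id2 only the bases from -250 to -162 relative to the start are shown, as the 161 bases next to the start lie in an annotated UTR. The capitals mark GGCGCC, each run reads 5′ to 3′ on the gene's strand, and the sequences are RefSeq promoters on GRCm38.p6. The Id2 stretch is chr12:25096254-25096342 on the minus strand, in an intron of the longer Id2 transcript, the Id4 window is chr13:48260866-48261115 on the plus strand, and the Smad9 window is chr3:54755332-54755581 on the plus strand.
Id2: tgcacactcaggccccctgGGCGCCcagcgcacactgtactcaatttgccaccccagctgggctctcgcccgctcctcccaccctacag
Id4: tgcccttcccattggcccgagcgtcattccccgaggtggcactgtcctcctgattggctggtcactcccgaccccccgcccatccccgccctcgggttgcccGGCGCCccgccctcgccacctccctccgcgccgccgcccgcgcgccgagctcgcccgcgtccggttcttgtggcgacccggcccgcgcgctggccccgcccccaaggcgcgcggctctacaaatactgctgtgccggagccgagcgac
Smad9: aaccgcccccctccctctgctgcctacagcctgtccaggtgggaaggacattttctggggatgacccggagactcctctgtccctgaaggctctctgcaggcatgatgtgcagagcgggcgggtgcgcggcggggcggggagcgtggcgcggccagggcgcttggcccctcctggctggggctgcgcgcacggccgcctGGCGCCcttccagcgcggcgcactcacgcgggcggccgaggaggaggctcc
Windows of 250 bases were searched for 7 of the members, on both strands. No window of Id1, Smad7 or Bambi was searched, so the shares given here do not cover these members. The letters GGCGCC stood in 4 of their 9 windows, those of Id2, Id4 and Smad9 and 1 of the 3 windows of Smad5, where it falls in an annotated UTR and is not shown, against 9.59% of all 32851 promoter windows of that length. The 9 windows held 60.0 to 75.6% G and C, and the share over all windows was not matched for base composition, so no enrichment is read from it. The Smad motif CAGAC stood in 2 of the 9, that of Id3, with 2 matches, and another of Smad5, against 42.2% of all windows, and the E-box letters CANNTG, which bHLH dimers bind, in 4 of the 9 against 66.2%. Of the 3 Smad5 windows 2 overlap, and their CANNTG matches are the same site, counted in both. No window held both GGCGCC and CAGAC, and no GGCGCC shared bases with a CANNTG. Id3, whose whole window lies in an annotated UTR, and Smad1 and Smad6 held no GGCGCC.

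The estimated counts per library ran from 40599047 to 56534931, the deepest being Control 2. Levels are in CPM, the counts of a gene divided by the TMM-scaled total of the tested genes in its library and put on a common scale, and fold changes are FDM minus Control on the log2 scale from edgeR's quasi-likelihood test over all 17432 genes. In that fit 281 genes, or 1.61% of those tested, had an unadjusted p under 0.05, the threshold the study uses. Higher in FDM eyes were 79 (0.453%) and lower 202 (1.16%). After Benjamini-Hochberg adjustment the count was 0 in this fit and 3 in DESeq2, which gave 172 genes at the unadjusted threshold, and it rose in edgeR fits blocked by mouse to 54 by column numbers and 128 by label numbers, with 0 members among them. The 11 markers of retinal neurons summed to between 43846 and 56284 CPM over the libraries, so that the labelled tissue's markers were abundant in each. Lens markers (9 of 10 in the table) summed to 1967 CPM in FDM 3 and to between 2.81 and 18.6 in the other libraries, Foxe3 of the lens epithelium having 2 counts in FDM 3 and none elsewhere, and 8 of the 8 tested were called higher in FDM eyes. Markers of the retinal pigment epithelium (RPE, all 10 above 0 in every library) summed to between 60.1 and 66.1 CPM in FDM 1, FDM 3 and Control 1 and to 213 and 199 CPM in Control 2 and Control 3, and 5 of the 10 were called lower in FDM eyes. Markers of muscle summed to 59.5 CPM in Control 3 and to between 9.24 and 10.7 CPM elsewhere, with Tnnt3 and Myh4 at 0 in some libraries, and 0 of the 4 tested were called in edgeR.

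Of the 10 members, Id2 alone had an unadjusted p under 0.05, and it was lower in FDM eyes. The remaining 9 did not pass, with log2 fold changes between -0.25 for Bambi and 0.06 for Smad1. The sign of the fold change was negative for 9 of the 10, while 44.4% of all genes tested had one above 0. The median over the members was -0.10 and over all genes tested -0.01. The adjusted p of every member was 1.0 from edgeR. In bulk tissue fewer cells of a type and less RNA per cell cannot be told apart.

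**Figure D1:**
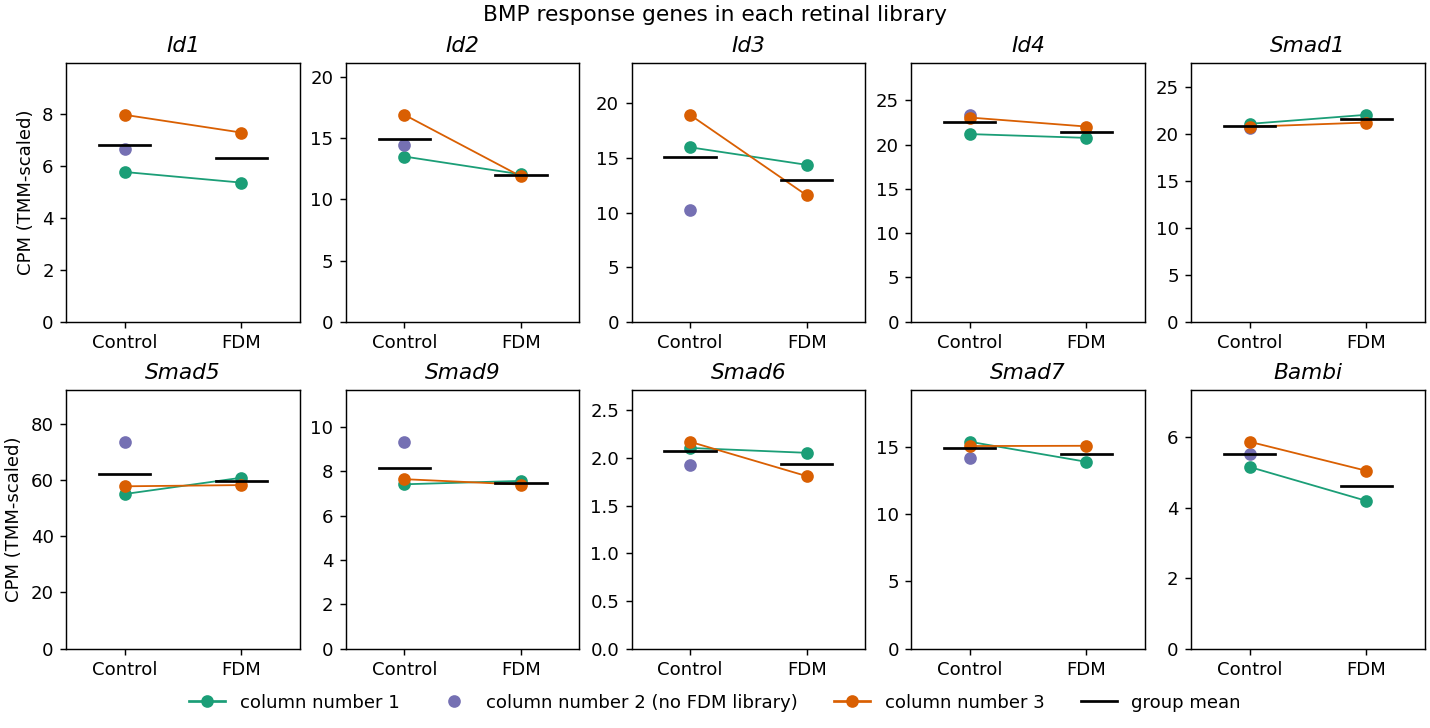
Level of each BMP response gene in CPM (TMM-scaled, each vertical axis from 0) in the 3 Control and 2 FDM libraries, with lines joining eyes of the same mouse by column number and black bars for group means. The FDM libraries lie below all Control libraries for Id2 and Bambi and above them for Smad1, and Id3 is spread from 10.3 to 19.0 among the Control libraries.

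The Control levels were ordered per kilobase of merged exons, and libraries were compared between neighbours in that order. Id3 stood at 8.41 ± 2.47 CPM per kb and Smad5 at 8.38 ± 1.35 (SD, n = 3 for this and the following Control levels), and their Control libraries overlapped. Id2 at 6.13 ± 0.723, Id4 at 5.86 ± 0.306 and Id1 at 5.85 ± 0.954 CPM per kb came next, again with overlapping libraries between neighbours, and the lowest Id3 library, at 5.73 CPM per kb, lay within the ranges of all 3. Smad1 at 3.33 ± 0.0387 and Smad7 at 3.29 ± 0.135 CPM per kb overlapped too. Below them Smad9 at 1.51 ± 0.195, Bambi at 1.09 ± 0.0705 and Smad6 at 0.645 ± 0.0386 CPM per kb each had Control libraries separate from those of its neighbours in this order. Merged exons count every annotated isoform, so that genes with many isoforms appear lower on this scale.

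The Id genes are among the most direct targets of the pathway, and BMP activity itself was not measured. Id2 (ENSMUSG00000020644, chromosome 12 of GRCm38, 25093799 to 25097140, minus strand) stood at 12.0 and 11.9 CPM in FDM 1 and FDM 3 and at 13.5, 14.4 and 16.9 CPM in Control 1, 2 and 3. Both FDM libraries were below all 3 Control libraries, an arrangement that 6.67% of the genes tested showed and that 2 of the 10 members, Id2 and Bambi, had. The group levels were 12.0 ± 0.120 CPM in FDM (SD, n = 2) and 14.9 ± 1.76 CPM in Control (SD, n = 3). On the log2 scale FDM minus Control was -0.32 (standard error 0.12, 95% interval -0.61 to -0.04, unadjusted p = 0.0321, adjusted p = 1.0 from edgeR). Control 1, the Control library with RPE markers as low as those of the FDM libraries, lay nearest to the FDM libraries, and the libraries highest in RPE markers, Control 2 and Control 3, were also highest in Id2. The part of RPE RNA in the Id2 difference was not tested. Without Control 3 the log2 fold change of Id2 was -0.22 and its unadjusted p 0.102, and without both Control 2 and Control 3, a choice made after the data had been seen, it was -0.15 with an unadjusted p of 0.130 from edgeR.

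Id3 (ENSMUSG00000007872, chromosome 4, 136143497 to 136145755, plus strand) stood at 14.4 and 11.6 CPM in FDM 1 and FDM 3 and at 16.0, 10.3 and 19.0 CPM in Control 1, 2 and 3. Control 2 was the lowest of all libraries and Control 3 the highest, so that the FDM libraries lay inside the range of the Controls. The group levels were 12.98 ± 1.97 CPM in FDM (SD, n = 2) and 15.1 ± 4.42 in Control (SD, n = 3), with a log2 fold change of -0.21 (standard error 0.25, 95% interval -0.79 to 0.36, unadjusted p = 0.412 from edgeR). Within mice FDM minus Control was -0.15 on the log2 CPM scale in the mouse numbered 1 and -0.71 in the mouse numbered 3. Of 9756 genes with a mean level inside the range of the members, 27.5% differed by at least as much as Id3 in the mouse numbered 1 and 1.69% in the mouse numbered 3. With the mouse as a block Id3 had a log2 fold change of -0.44 (95% interval -0.71 to -0.17, unadjusted p = 0.00531, adjusted p = 0.474 from edgeR), and with the numbers of the sample labels as the block it was 0.01 (unadjusted p = 0.946). The value for Id3 within mice turned on which Control library was taken as the partner of FDM 3. Control 2 has no partner in the block by column numbers and so does not enter the difference fitted there. Leaving Control 2 out of the fit without a block, which compares the same libraries, gave Id3 a log2 fold change of -0.42 (unadjusted p = 0.0228 from edgeR).

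Id1 (ENSMUSG00000042745, chromosome 2, 152736251 to 152737410, plus strand) stood at 5.35 and 7.28 CPM in FDM 1 and FDM 3 and at 5.76, 6.65 and 7.96 CPM in Control 1, 2 and 3. Both libraries numbered 3 were the highest and both numbered 1 the lowest, and the groups overlapped. Its log2 fold change was -0.10 (standard error 0.19, 95% interval -0.55 to 0.34, unadjusted p = 0.595 from edgeR). Id4 (ENSMUSG00000021379, chromosome 13, 48261228 to 48266026, plus strand), which is expressed in neural lineages, had 20.8, 22.04, 21.2, 23.4 and 23.1 CPM in FDM 1, FDM 3, Control 1, Control 2 and Control 3. Its groups overlapped and its spread was small, with a log2 fold change of -0.08 (standard error 0.09, 95% interval -0.28 to 0.13, unadjusted p = 0.415 from edgeR). Summed over the 4 Id genes, the level was 52.5 CPM in FDM 1 and 52.8 in FDM 3, against 56.4, 54.7 and 66.9 CPM in Control 1, 2 and 3. All 4 Id genes were highest or next to highest in Control 3, the library with the highest sum of muscle markers, and the part of those cells in the Id levels was not tested.

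The receptor-regulated Smads are phosphorylated by the BMP receptors, and their mRNA level does not show their activity. Smad1 (ENSMUSG00000031681, chromosome 8, 79338395 to 79399518, minus strand) stood at 22.1 and 21.2 CPM in FDM 1 and FDM 3 and at 21.1, 20.6 and 20.8 CPM in Control 1, 2 and 3. The FDM libraries were above all Controls, as they were for 3.97% of genes tested, but by little. The log2 fold change was 0.06 (standard error 0.08, 95% interval -0.13 to 0.24, unadjusted p = 0.505 from edgeR), and on the authors' normalized scale FDM 3 at 983 was below Control 2 at 987. Over the 3 Control libraries the SD of log2 CPM of Smad1 was 0.02, the smallest among the members. Smad5 (ENSMUSG00000021540, chromosome 13, 56703010 to 56742377, plus strand) had 60.8, 58.2, 55.0, 73.6 and 57.8 CPM in FDM 1, FDM 3, Control 1, Control 2 and Control 3, and Control 2 stood above the rest. Its log2 fold change was -0.06 (95% interval -0.38 to 0.25, unadjusted p = 0.652 from edgeR), and it was 0.08 with the block by column numbers and -0.10 with that by label numbers. Smad9 (ENSMUSG00000027796, chromosome 3, 54755582 to 54801257, plus strand) had 7.57, 7.40, 7.41, 9.33 and 7.64 CPM in the same order, with Control 2 again the only library apart. Its log2 fold change was -0.12 (95% interval -0.44 to 0.20, unadjusted p = 0.400 from edgeR). Both genes also stood highest in Control 2 on the authors' normalized scale, at 3386 for Smad5 and 436 for Smad9, with the other libraries between 2532 and 2890 and between 343 and 360.

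Of the feedback inhibitors, Smad6 competes for Smad1 and Smad7 acts on the receptors of both BMP and TGF-beta. Smad6 (ENSMUSG00000036867, chromosome 9, 63953076 to 64022059, minus strand), the least expressed member, had 89 and 87 estimated counts in FDM 1 and FDM 3 and 84, 110 and 103 in Control 1, 2 and 3. In CPM these were 2.05, 1.81, 2.10, 1.93 and 2.17, overlapping between groups, with a log2 fold change of -0.10 (95% interval -0.49 to 0.30, unadjusted p = 0.578 from edgeR). Smad7 (ENSMUSG00000025880, chromosome 18, 75367529 to 75395935, plus strand) had 13.9, 15.1, 15.4, 14.2 and 15.0 CPM and a log2 fold change of -0.04 (95% interval -0.27 to 0.19, unadjusted p = 0.706 from edgeR). Its groups overlapped, and its sign turned to 0.03 with the authors' normalization factors. Bambi (ENSMUSG00000024232, chromosome 18, 3507923 to 3516404, plus strand), a receptor without a kinase domain, stood at 4.20 and 5.05 CPM in FDM 1 and FDM 3 and at 5.16, 5.53 and 5.88 CPM in Control 1, 2 and 3. Both FDM libraries lay below the Controls, FDM 3 only just below Control 1. Bambi stood at 4.63 ± 0.604 CPM in FDM (SD, n = 2) and 5.52 ± 0.358 in Control (SD, n = 3), and its log2 fold change of -0.25 did not pass (standard error 0.14, 95% interval -0.58 to 0.08, unadjusted p = 0.112 from edgeR). On the authors' normalized scale FDM 3 at 241 lay above Control 1 at 237, so that the groups overlapped there. A pseudogene, Bambi-ps1, which could share reads with Bambi, had between 15 and 32 counts per library against 182 to 315 for Bambi.

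**Figure D2:**
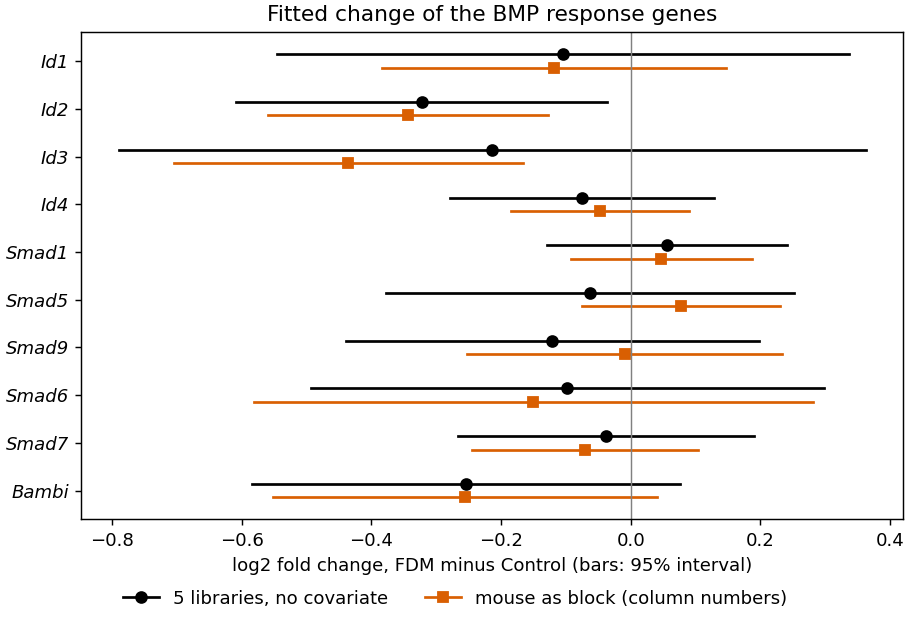
Fitted log2 fold change (FDM minus Control, horizontal axis) of each BMP response gene with its 95% interval, without a covariate (black circles) and with the mouse as a block by column number (orange squares). The interval lies below 0 for Id2 in both fits and for Id3 in the block fit, and includes 0 for the other 8 genes in both.

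Taking the eyes of the same mouse together, 6 of the 10 members were lower and 2 higher in the FDM eye in both mice, while 30.3% of genes tested were lower and 24.7% higher in both. The members lower in both were the 4 Id genes, Smad6 and Bambi, and those higher in both were Smad1 and Smad5. With the label numbers, by which Control 2 is the partner of FDM 3, 4 members were lower in both mice (Id2, Id4, Smad6 and Bambi) and 1 higher (Smad1), while 19.9% of genes tested were lower and 13.9% higher in both. Id2 differed by -0.16 in the mouse numbered 1 and by -0.51 in the mouse numbered 3 on the log2 CPM scale, and Bambi by -0.30 and -0.22. Id1 differed by -0.11 and -0.13, Id4 by -0.03 and -0.07, and Smad5 by 0.14 and 0.01. The median absolute difference of the members was 0.13 in the mouse numbered 1 and 0.10 in the mouse numbered 3, and that of all genes tested was 0.10 in both. With the mouse as a block 2 members had an unadjusted p under 0.05, Id2 (log2 fold change -0.34, unadjusted p = 0.00577, adjusted p = 0.495 from edgeR) and Id3, where 7.23% of all genes passed. With the label numbers as the block 0 members and 2.52% of all genes passed in edgeR, Id2 having a log2 fold change of -0.22 (unadjusted p = 0.129). With the authors' factors as offsets 0 members and 1.9% of all genes passed in edgeR, the unadjusted p of Id2 being 0.0586, and in DESeq2 Id2 and 0.987% of all genes passed. Against Control 2, FDM 3 differed by -0.34 for Smad5, -0.33 for Smad9 and -0.28 for Id2, and by 0.13 for Id1 and 0.17 for Id3.

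The members' median spread among the Control eyes was near that of genes of like level. The SD of log2 CPM over the 3 Control libraries had a median of 0.13 over the members and ran from 0.02 for Smad1 to 0.46 for Id3, and its median was 0.14 and its 90th percentile 0.30 over the 9696 genes tested with a mean log2 CPM inside the members' range. Id3 was the member above that percentile. Control 3 was the highest library for 5 members and Control 2 for 3, where these libraries were highest for 20.2% and 31.4% of all genes tested. FDM 3 was highest for 0 members and FDM 1 for Smad1, where they were highest for 9.03% and 11.6% of all genes.

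**Figure D3:**
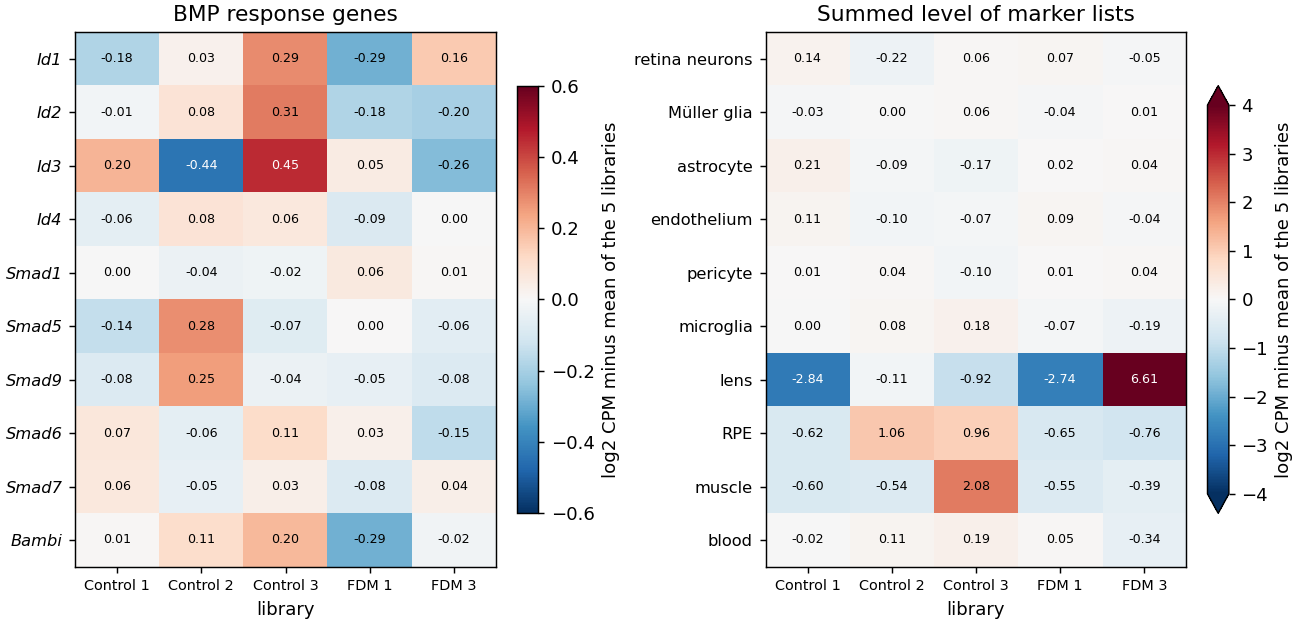
Log2 CPM minus the mean of the 5 libraries for each BMP response gene (left) and for the summed level of each marker list (right), one column per library, with separate colour scales. Id3 ranges from -0.44 in Control 2 to 0.45 in Control 3, Smad5 and Smad9 peak in Control 2 at 0.28 and 0.25, and the lens sum stands apart in FDM 3.

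Endothelial cells and glia express Id genes and Smads, and their markers were present in every library. The 12 endothelial markers, all above 0 in every library, summed to 396 and 361 CPM in FDM 1 and FDM 3 and to 400, 346 and 354 CPM in Control 1, 2 and 3, and 0 of 12 passed the unadjusted threshold in edgeR. Most of this sum was Kdr and Flt1, with 8742 and 4184 counts in FDM 1, where no other endothelial marker exceeded 756. The 6 pericyte markers summed to between 93.3 and 103 CPM and the 8 Müller glia markers to between 3876 and 4154 CPM, with 1 of the 8 called lower. Astrocyte markers summed to between 31.9 and 41.6 CPM, with 0 of 3 passing. Microglia markers summed to 26.4 and 24.2 CPM in FDM 1 and FDM 3 and to 27.6, 29.2 and 31.3 CPM in Control 1, 2 and 3. Of these 6 markers 0 passed, but all 6 had a negative log2 fold change (median -0.18). The microglia sums stood in the same library order as Id2, and the part of microglial RNA in the Id2 difference was not tested. Blood markers summed to between 33.0 and 47.6 CPM, with 0 of 5 passing. Lens sums were highest in FDM 3, where Id2 was at its lowest, Id3 lower than in all but Control 2, and Id1 above its mean over the libraries; the part of lens RNA in these levels was not tested.

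Among other genes of the pathway, 67 of the 72 on the lists were tested and 3 passed the unadjusted threshold, all lower in FDM eyes. These were the ligand Bmp4 and the secreted antagonists Fst (follistatin) and Nbl1. No receptor or co-receptor passed (0 of 12 in edgeR), and their log2 fold changes ran from -0.60 to 0.06 with a median of -0.06. The most abundant, the type I receptor Bmpr1a, had 71.3 and 76.7 CPM in FDM 1 and FDM 3 and 67.7, 112 and 82.7 CPM in Control 1, 2 and 3, with Control 2 apart from the rest as for Smad5 (log2 fold change -0.24, unadjusted p = 0.255 from edgeR). Control 2 was the highest library for 27 of the 67 pathway genes (40.3%) and for 5 of the 12 receptors (41.7%). Over all genes tested it was highest for 31.4%. With the mouse as a block 1 receptor passed, the type II receptor Acvr2b (0.25, unadjusted p = 0.00973, adjusted p = 0.561 from edgeR), without the block its value was 0.01, and with the label numbers as the block it was -0.07 (unadjusted p = 0.633).

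Smad4, which all receptor-regulated Smads bind, and 12 regulators of Smads such as the ubiquitin ligases Smurf1 and Smurf2 gave 0 calls of 13 in edgeR, with log2 fold changes from -0.25 to 0.10. The most abundant of them, the phosphatase Ppm1a, had between 209 and 228 CPM in all libraries (log2 fold change -0.05, unadjusted p = 0.540 from edgeR). Smad2 and Smad3, which carry TGF-beta and activin signals, had log2 fold changes of -0.03 and -0.01, and Smad3 stood between 36.0 and 38.1 CPM. Of the other target genes 0 of 9 tested passed, with a range from -1.07 for Msx1, at 6 to 28 counts per library, to 0.58 for Dlx1, at 10 to 25 counts. The most abundant, the dorsal transcription factor Tbx2, had a log2 fold change of 0.12 (unadjusted p = 0.457 from edgeR). The bHLH factors that Id proteins act on gave 0 calls of 11 tested in edgeR, with a range from -0.15 to 0.21 and a median of 0.00. Neurod1, a photoreceptor factor and the most abundant of these, had between 422 and 470 CPM (0.05, unadjusted p = 0.542), and Ptf1a and Olig2 were at 0 to 4 counts and were not tested.

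Of the ligands, Bmp4 passed (-1.10, standard error 0.40, edgeR unadjusted p = 0.0272 and adjusted p = 1.0) among 9 tested, and the most abundant, Bmp7, had 11.8 and 12.97 CPM in FDM 1 and FDM 3 and 12.2, 15.8 and 16.7 CPM in Control 1, 2 and 3 (-0.26, unadjusted p = 0.118). Of the antagonists 2 of 11 passed and the median log2 fold change was -0.25. Fst, which binds activins and BMPs, had 14 and 21 counts in FDM 1 and FDM 3 and 27, 39 and 31 in Control 1, 2 and 3 (-0.81, standard error 0.27, edgeR unadjusted p = 0.0193 and adjusted p = 1.0). Nbl1, a BMP-binding cystine-knot protein, had 33.2 and 33.0 CPM in FDM 1 and FDM 3 and 36.1, 39.2 and 43.5 CPM in Control 1, 2 and 3 (-0.26, standard error 0.10, edgeR unadjusted p = 0.0336 and adjusted p = 1.0). With the label numbers as the block Nbl1 did not pass (-0.18, unadjusted p = 0.199 from edgeR). The libraries stood in the same order for Nbl1 as for Id2, from FDM 3 lowest to Control 3 highest. Twsg1, the most abundant antagonist, had a log2 fold change of -0.09 (unadjusted p = 0.544 from edgeR). With the mouse as a block by column numbers the calls rose from 3 to 8 of 67, while those over all genes rose from 1.61% to 7.23%. Bmp2, Bmp5, Bmp7, Fstl1 and Acvr2b were added, of which Bmp5 and Acvr2b were higher and the rest lower in FDM eyes. With the label numbers as the block 5 of 67 passed, against 2.52% of all genes: Bmp4, Bmp2 and Fst, lower, and Tbx5 and Gdf6, higher in FDM eyes. Bmp5, Bmp7, Fstl1 and Acvr2b did not pass in that fit. Bmp4 and Bmp2 were highest in Control 2 and Control 3, where RPE markers were highest, and the part of RPE RNA in these differences was not tested.

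**Figure D4:**
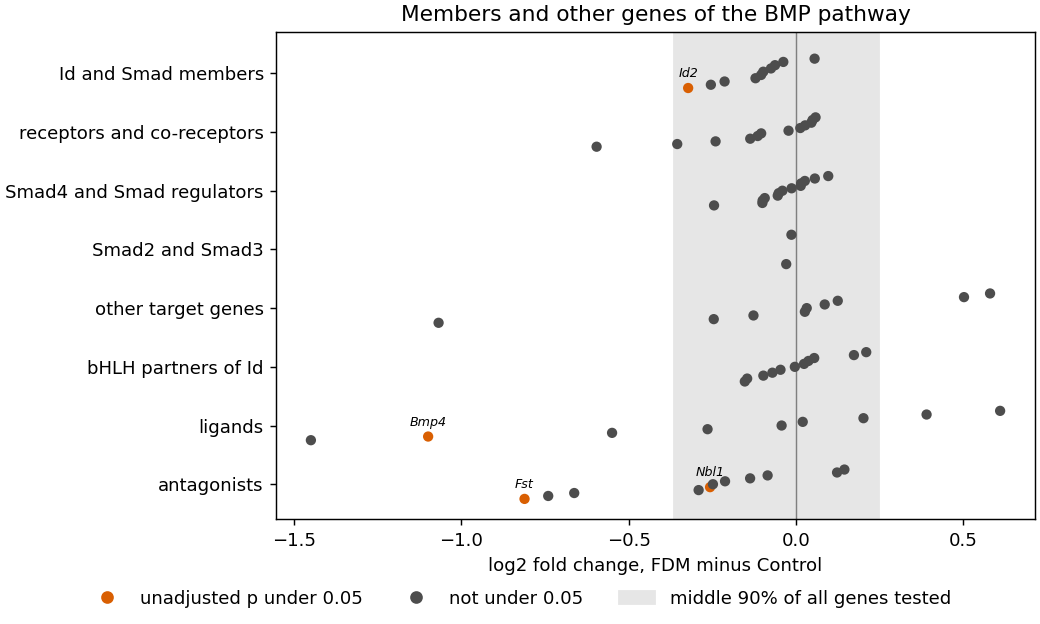
Log2 fold change (FDM minus Control, horizontal axis) of the BMP response genes and of the other tested genes of the pathway by list, each point a gene, orange where the unadjusted p is under 0.05. The grey band, from -0.37 to 0.25, holds the middle 90% of all genes tested, and all 10 BMP response genes lie inside it.

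By likeness of profile over the 5 libraries, the genes nearest to Id1 in centred log2 CPM, out of 14805 with a mean of at least 1 CPM, were Pspn, Ceacam3, Ccdc102a, Sncg and H2ac19, at root-mean-square distances from 0.04 to 0.05. Like Id1 they were lowest in FDM 1 or Control 1 and highest in Control 3. Nearest to Id3 were Cyp26a1, Nr4a1, Gm12788, Heyl and Cebpb, at distances from 0.09 to 0.11. Nr4a1, an activity-induced nuclear receptor, had 57.3 and 48.1 CPM in FDM 1 and FDM 3 and 75.5, 41.7 and 73.5 CPM in Control 1, 2 and 3, so that Control 2 was lowest for it as for Id3. With 5 libraries and this many candidates, such likeness is a description of these libraries.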

How the data were processed

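Retinal RNA was sequenced from polyA-selected TruSeq libraries, and 5 libraries were analysed, 2 FDM and 3 Control, grouped by their labels. According to the submitters' processing notes the authors used Trimmomatic 0.39, Salmon 1.10.1 and R 4.3.1 with GRCm38, and they deposited estimated counts per gene as whole numbers and a signal of counts normalized in DESeq2. In the normalized file the factor differs between genes of a library, the middle 90% of highly counted genes lying between 1.15 and 1.30 in Control 2 and between 0.888 and 0.962 in FDM 1. The strand setting was not given in the sources used here. The study removed 1 sample for its level of read duplication.

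The genes fitted had over 10 counts in 2 or more libraries, in edgeR 4.0.16 under R 4.3.3 with TMM, and unadjusted p and Benjamini-Hochberg values are over all genes tested. Standard errors are the log2 fold change over the square root of F, and intervals use its degrees of freedom. Alternatives used DESeq2 1.42.0, limma 3.58.1 (log2 of normalized counts plus 1), other scalings and filters, and each library left out. The test scripts were tested on simulated data. No pair of libraries agreed within sampling noise (chi-square per degree of freedom from 11.6 to 57.5). At these totals 3 counts equal 0.0526 to 0.0751 CPM, a limit for counting error only. The labels do not say whether library preparation was shared, and with 2 and 3 animals p-values rest on the spread of these samples.

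The label protocol makes the eyes of a mouse a pair. The deviations from group means of eyes with the same column number correlated across genes at 0.29 (mouse 1) and 0.15 (mouse 3). Those of FDM 3 with Control 2, its partner by label number, correlated at 0.17. With 2 FDM libraries the deviations of FDM 3 are those of FDM 1 with the sign turned. The values for FDM 3 therefore restate those of FDM 1 with Control 3 (-0.15) and Control 2 (-0.17) and are not a separate measure. The correlations did not settle the partner of FDM 3. The paper gives the mean and SD of the myopic shift of its mice. Beside these, the refractive errors at P42 lie nearer to the pairing by column numbers than to that by label numbers. This reading assumes that the refractive errors belong to these libraries and that the mouse without an FDM library makes up the mean. Coordinates and exon lengths are from GENCODE M21 (GRCm38). Named genes were the members and, from each pathway list, the genes under the threshold and the most abundant gene, with the 5 genes nearest in profile to Id1 and to Id3. Any other gene in the text was picked with its values in view. The members and lists were chosen with earlier results of these data known.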

Additional observations from a re-analysis of the deposited data

How the results depend on the processing

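Id2 kept a negative log2 fold change in all 15 alternatives (-0.39 to -0.15) and passed the unadjusted threshold in 8 of them, not in 7. Smad1, Smad6 and Bambi also kept their sign in all 15 and passed in 0 (edgeR, DESeq2 and limma). The count of members passing, 1 as reported, was 2 with the block by column numbers and 0 with the block by label numbers, with the authors' factors as offsets and in limma, and with each library left out in turn it lay between 0 (without FDM 1, FDM 3 or Control 3) and 2 (without Control 2). Without Control 2 and Control 3 together it was 1, which was Smad5 and not Id2. Over all genes the 281 calls became 1261 with the replicate block by column numbers, 439 with that by label numbers, 172 in DESeq2, 498 without a filter, 160 at a minimum of 50 counts in 3 libraries, 146 to 944 with each library left out in turn (165 without FDM 1, 944 without Control 1, 550 without Control 2, 146 without Control 3), and 1766 without Control 2 and Control 3 together, an alternative added after the data were seen. The 3 pathway calls became 8 and 5 with the column and label blocks (with the latter Bmp2 had an adjusted p of 0.0493 from edgeR), 7 (all higher) without Control 2 and Control 3, and 0 (without FDM 1), 1 (without Control 3) and 14 (without Control 1) in the leave-one-out fits. Signs turned for Smad5 (0.077) with the column block, for Id1 (0.016) and Id3 (0.0098) with the label block, for Smad7 with the authors' factors (0.033) and in limma (0.032), and for Id1 (0.16), Id4 (0.035), Smad5 (0.13, unadjusted p = 0.0497 from edgeR) and Smad9 (0.034) without Control 2 and Control 3. In the leave-one-out fits Id1 ran from -0.34 to 0.10, Smad5 from -0.14 to 0.088, Smad7 from -0.099 to 0.020 and Smad9 from -0.18 to 0.0013. The cause of these shifts was not tested. Where 1 FDM library remained, it was assumed to vary like the Controls. The block fits leave 1 residual degree of freedom, and the block changed no other member's call. The number of members higher in FDM 3 than in its partner moved from 3 to 4 when FDM 3 was paired by label number, and the number lower in both mice from 6 to 4.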
